A study of Mus musculus with 6 samples.

Results

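Brg1 knockdown was set directly against Ino80 knockdown in E14 mouse embryonic stem cells, a male line kept pluripotent in serum with LIF. The comparison takes 4 of the 6 Hi-C libraries of the study. The Brg1KD libraries, 2 in number, came from cells given esiRNA (a pool of short interfering RNAs cut from a long double strand) against Smarca4, the gene of Brg1. The Ino80KD libraries, also 2, came from cells given esiRNA against Ino80. A further 2 libraries from cells given esiRNA against EGFP, a gene these cells lack, serve as background under the name control. All groups share the line, passages 18 to 26, transfection with 3.5 µg esiRNA, harvest after 48 h and fixation in 1% formaldehyde. A transient knockdown leaves some of the protein in place, and Hi-C measures no transcript, so the extent of either knockdown was not measured here. Per the labels the replicate number is the batch, so library 1 of each group shares batch 1 and library 2 shares batch 2. Nothing in the labels says that replicates were separate cultures, so the spread between them may be technical.

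Brg1 is the ATPase of esBAF, the form of the SWI/SNF remodelling complex found in embryonic stem cells, which slides and evicts nucleosomes and keeps enhancers accessible. Ino80 is the ATPase of the INO80 complex, which spaces nucleosomes and is known for its work at promoters and during DNA replication. Both complexes are needed to maintain the pluripotent state. Chromosomes fold into an active, gene-rich A compartment and an inactive B compartment, and within these into loops that join distant points, many of them held by CTCF and cohesin and others by Polycomb complexes at silent developmental genes. The series title asks how esBAF and INO80 each act on subcompartments and on contacts between enhancers and promoters.

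Each library came with a division of the autosomes 1 to 19 into 8 subcompartments. From the most B-like to the most A-like these are B.2.2, B.2.1, B.1.2, B.1.1, A.2.2, A.2.1, A.1.2 and A.1.1. A class below is 1 step on this ladder, and a positive difference means that a place was more A-like in Brg1KD than in Ino80KD. The labels were read in bins of 50 kb, of which 47717 of 48009 (99.4%) had a label in all 6 libraries. The files give no read numbers, so the depth of each library is unknown. A second kind of file lists chromatin loops by the positions of their anchors of 10 kb, in 1 list a group that is named as merged and recorded with replicate 2. The loops have no score and no replicate, so the loop comparison has no replicate check and no test. Positions are those of mm10.

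The labels cannot identify the cell type. Of 36 pluripotency genes placed in bins, 35 lay in A in all 4 knockdown libraries, against 68.7% of all placed genes, but 75 of 80 ribosomal protein genes and 28 of 29 DNA replication genes did too. Of 20 genes that mark fibroblasts, 11 lay in A in all 4 libraries and 9 in B in all 4. Since no transcript was measured, a place in A is not read here as expression. The genes of both targets, Smarca4 (chr9:21616106-21704230) and Ino80 (chr2:119373042-119478685), were in A.1.1 in every library, as was Pou5f1, the gene of Oct4. Nanog was in A.1.1 in every library except Brg1KD library 2, which had A.1.2.

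The share of the genome in A overlapped between the knockdowns. It was 38.46% and 38.83% in the Brg1KD libraries and 38.46% and 38.61% in the Ino80KD libraries. Their means were 38.6% ± 0.259 (SD, n = 2) and 38.5% ± 0.105 (SD, n = 2), and control had 39.6% ± 0.0919 (SD, n = 2). The difference of 0.105 percentage points, -0.00419 in batch 1 and 0.214 in batch 2, lay within the spread between libraries (two-sided exact permutation test, p = 1). With 2 libraries against 2 this test cannot give a p below 0.333. The mean place on the ladder, with B.2.2 as 1 and A.1.1 as 8, was 3.91 and 3.889 in Brg1KD against 3.922 and 3.892 in Ino80KD (exact permutation p = 0.667).

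The size of each of the 8 subcompartments overlapped between the knockdowns as well. The deepest one, B.2.2, held 22.88% and 24.83% of bins in Brg1KD and 22.15% and 25.0% in Ino80KD. The most A-like one, A.1.1, held 13.43% and 15.17% in Brg1KD and 13.86% and 15.12% in Ino80KD. In both of these the higher value of each knockdown came from batch 2. No difference in size was larger than the spread between libraries (exact permutation, adjusted p = 1 for each), and the largest difference between group means was 0.282 percentage points, in B.2.2.

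**Figure D1:**
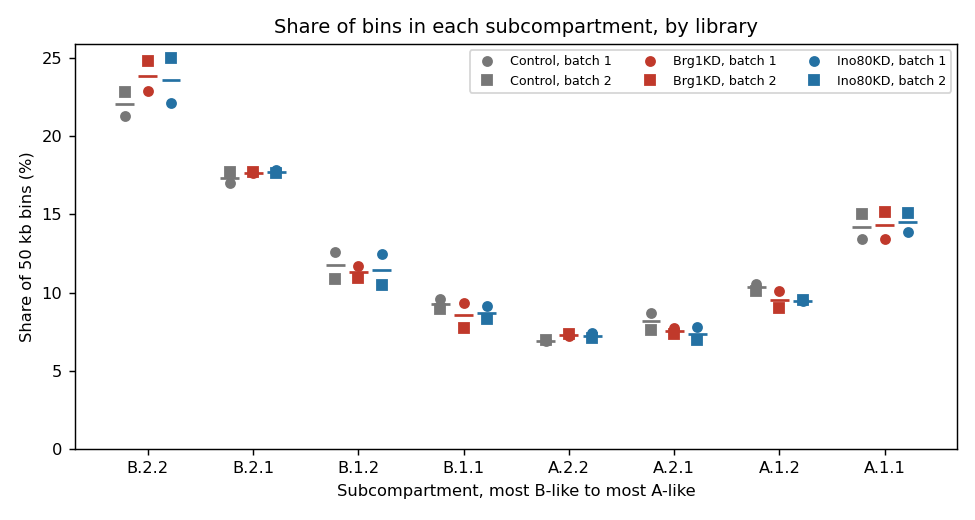
Share of 50 kb bins in each of the 8 subcompartments (vertical axis, percent), with 1 point a library and short bars for the mean of 2 libraries. The Brg1KD and Ino80KD points overlap in every subcompartment, and in B.2.2 the batches stand further apart (22.15% to 25.0%) than the knockdowns.

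Bin by bin, libraries of different knockdowns disagreed slightly more often than replicates did, where both pairs crossed batches. The same label was given to 65.6% of bins by the Brg1KD and Ino80KD libraries of batch 1 and to 68.57% by those of batch 2. The 2 Brg1KD libraries shared 68.32% of labels and the 2 Ino80KD libraries 69.54%, while pairs that crossed both batch and knockdown shared 65.19% and 64.94%. The replicate pairs cross batches too, so their disagreement holds the error of 2 labels and any batch difference. The pairs that crossed both are thus the like comparison for them. Most disagreement was small, since every pair among the 4 knockdown libraries agreed within 1 class in at least 95.85% of bins.

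Of all bins, 4228 (8.86%) were separated, meaning that both libraries of one knockdown lay beyond both libraries of the other. In 2021 bins (4.24%, 101.05 Mb) Brg1KD was the more A-like, and in 2207 (4.63%, 110.35 Mb) Ino80KD was. These bins formed 535 and 573 runs, each with a median length of 150 kb. Most of the differences were of a single class, exactly 1 class in 73.4% and 74.9% of the bins, and 196 and 190 bins differed by 2 classes or more. Separated bins lay next to a change of label in some knockdown library in 48.8% of cases, against 36.9% of all bins. A run of separated bins can only end where the label of some knockdown library changes. The higher share is thus partly built into the definition and is not read as a result. Protein-coding genes were sparser in bins higher in Ino80KD, with 5.95 per Mb, than in bins higher in Brg1KD, with 7.86, and all bins had 8.54.

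The same bins can be read through each batch alone. The knockdowns had different labels in 34.4% of bins in batch 1 and in 31.4% in batch 2. Of the 7259 bins that differed in both batches, 4958 (68.3%) differed the same way, 2399 with Brg1KD higher and 2559 with Ino80KD higher. In 24258 bins both libraries of each knockdown had agreed on a label, and there the knockdowns gave the same label in 86.4%. Of the 3289 that differed, 3135 did so by 1 class.

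On the rung between B.1.1 and A.2.2, the border of B and A, more bins stood on the upper side in Brg1KD. Among bins with agreed labels, 201 were A.2.2 in Brg1KD and B.1.1 in Ino80KD, and 140 were the reverse. On most other rungs the balance ran the other way. At the bottom, 398 bins were B.2.1 in Brg1KD and B.2.2 in Ino80KD, against 471 the reverse. Between A.2.1 and A.1.2 the counts were 151 and 216, and between A.1.2 and A.1.1 they were nearly even, 158 and 160.

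**Figure D2:**
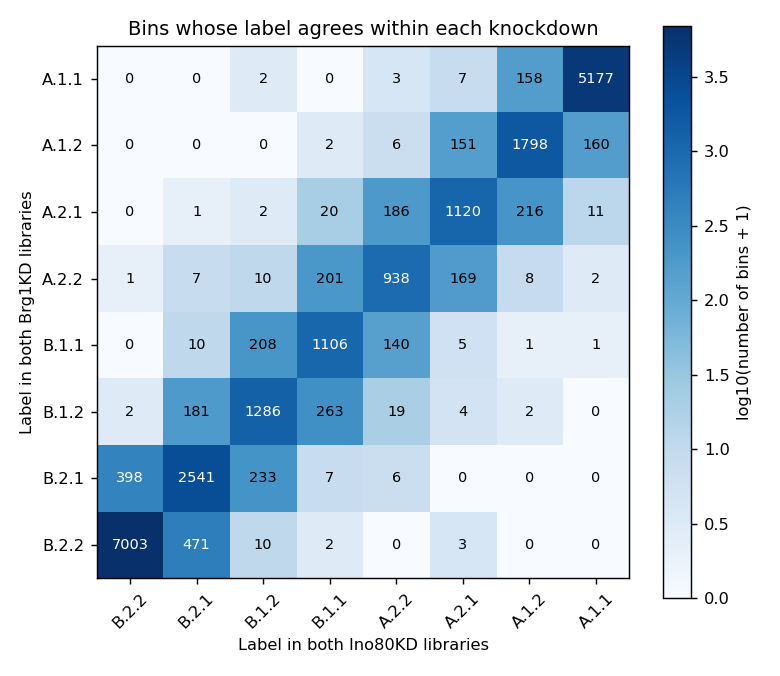
Number of bins for each pair of labels, over the 24258 bins in which both libraries of Brg1KD (vertical axis) and both of Ino80KD (horizontal axis) agreed, with colour as log10 of the number plus 1. The diagonal holds 86.4% of the bins, and nearly all others are 1 class off it, such as 471 bins in B.2.2 in Brg1KD and B.2.1 in Ino80KD.

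A test per bin with limma, fitted on all 6 libraries with Benjamini-Hochberg adjustment at 0.05, called 1890 bins (3.96%), 867 (1.82%) higher in Brg1KD and 1023 (2.14%) higher in Ino80KD. These bins held 2.75% of placed protein-coding genes, 1.4% towards Brg1KD and 1.35% towards Ino80KD. All 1890 were separated bins. Its p-values are not calibrated for labels in whole classes: 1877 of the calls fell on bins whose libraries showed no spread within any group, and most calls on simulated data fell on bins that had not been moved. The calls are therefore given as a description and support nothing here. With one spread common to all bins the count was 515, and with batch added as a replicate block to that fit it was 1475.

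On average the control libraries stood between the knockdowns in the separated bins. These bins were chosen because the knockdowns lay apart in them, so a group left out of the choice tends to average in between. The mean places and the counts against control are therefore a description and were not tested. In the 2021 bins higher in Brg1KD the mean place was 4.62 in both Brg1KD libraries, 3.95 and 3.93 in the controls and 3.40 and 3.38 in the Ino80KD libraries. There Brg1KD was above both controls in 729 bins and Ino80KD below both controls in 519. In the 2207 bins higher in Ino80KD the mean place was 3.32 and 3.33 in Brg1KD, 4.26 and 4.30 in control and 4.52 and 4.55 in Ino80KD. In these, Brg1KD was below both controls in 1334 bins and Ino80KD above both controls in 261. Since both knockdowns are read against the same controls, these values are given side by side and no relation between them was computed.

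Among the 19 autosomes, the mean place of the knockdowns did not overlap on 4 (21.1%). Full separation of 2 libraries from 2 is reached by a share of 0.333 of the possible groupings, and 21.1% does not exceed it. The values by chromosome are therefore a description and were not tested. Chromosome 5 was more A-like in Brg1KD, by 0.0692 classes in batch 1 and 0.0980 in batch 2. Chromosomes 8, 12 and 16 were more A-like in Ino80KD, by means of -0.0973, -0.0808 and -0.0861 classes. On chromosome 16, 8.00% of bins were separated towards Ino80KD and 3.23% towards Brg1KD, and on chromosome 5 the shares were 2.36% and 5.58%. Of all autosomes, 11 had the same sign in both batches, 2 towards Brg1KD and 9 towards Ino80KD. Chromosomes 17, 18 and 19 were unlike in the 2 batches, with 0.110, 0.202 and 0.271 classes in batch 1 against -0.0071, -0.000574 and -0.0121 in batch 2.

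**Figure D3:**
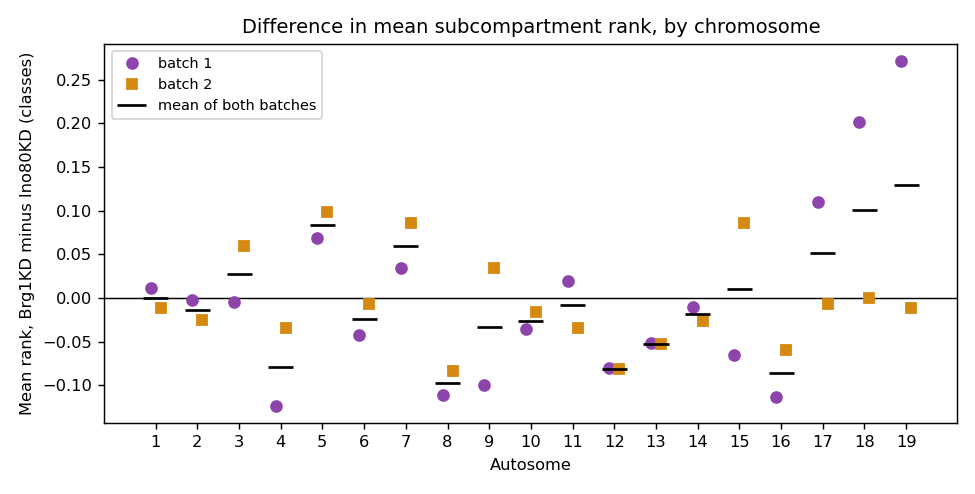
Mean subcompartment place of Brg1KD minus Ino80KD in classes (vertical axis) on each autosome (horizontal axis), with a point for each batch and a bar for their mean. Chromosomes 5, 8, 12 and 16 have both batches on the same side with no overlap of libraries, while chromosome 19 stands at 0.271 in batch 1 and at -0.0121 in batch 2.

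The stretches with the largest summed differences towards Brg1KD held genes of several kinds. The largest summed difference lay over Vps41, which encodes a subunit of the tethering complex that delivers cargo to lysosomes, and Amph, the gene of amphiphysin (chr13:18450001-18950000). Its 10 bins were A.2.2 or B.1.1 in Brg1KD library 1 and A.2.1 or A.2.2 in library 2, and B.1.2 in nearly all bins of the Ino80KD libraries. The difference was 1.8 classes in batch 1 and 2.6 in batch 2, and within each batch the control lay between the knockdowns, at mean places of 3.8 and 5. The longest run, of 900 kb (chr5:128400001-129300000), held Fzd10, a Wnt receptor, Piwil1, a piRNA-binding protein, Rimbp2 and Stx2. Both Brg1KD libraries gave A.1.1 and A.2.1 there, and both Ino80KD libraries were exactly 1 class lower in all 18 bins. A run of 800 kb on chromosome 1 (chr1:60550001-61350000) carried the T-cell co-receptor genes Cd28, Ctla4 and Icos, with a difference of 1 class in batch 1 and 1.188 in batch 2. The others of the 6 largest by summed difference were a stretch of Skint genes on chromosome 4 (2 classes in each batch), a gene-free stretch on chromosome 10 and a stretch of predicted Gm genes on chromosome 8.

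In the opposite direction the largest summed difference lay over Prickle2, a planar cell polarity gene, and Adamts9, a secreted protease (chr6:92250001-92950000). All 14 bins were B.1.2 in both Brg1KD libraries. Ino80KD library 1 gave B.1.1 or A.2.2 and library 2 gave A.2.2 throughout, and the controls had the same mean places as the Ino80KD libraries of their batch, 4.357 and 5. A stretch of 700 kb with Prdm1 as its only protein-coding gene (chr10:44300001-45000000) differed by -1.286 classes in each batch. Prdm1 encodes Blimp1, a repressor needed for the germ line. Further such stretches held Parp11, Cracr2a, Prmt8 and Tspan11 on chromosome 6, and Trpm8, Spp2, Glrp1 and Arl4c on chromosome 1. Another one, on chromosome 14, held no protein-coding gene.

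**Figure D4:**
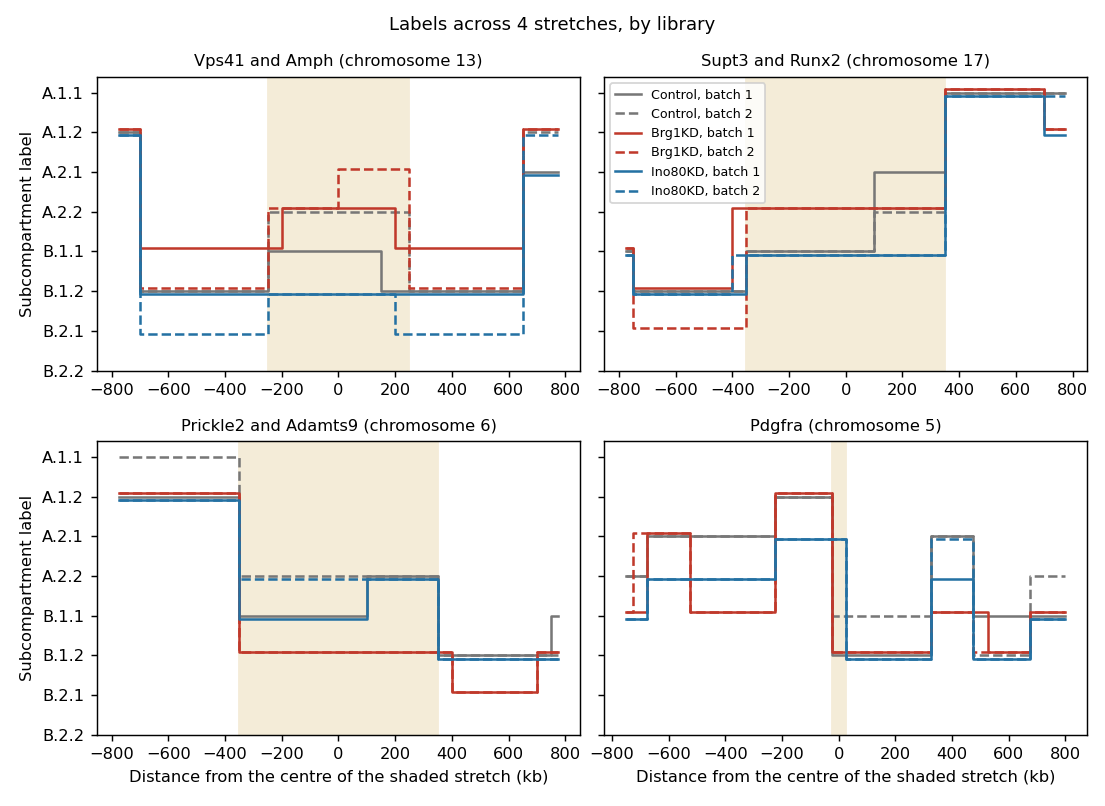
Subcompartment label (vertical axis) in all 6 libraries along 4 stretches, against distance in kb from the centre of the shaded separated run, with lines of the knockdowns drawn slightly apart. Over Vps41 and over Supt3 and Runx2 both Brg1KD lines lie above both Ino80KD lines, over Prickle2 and over Pdgfra below them, and at Pdgfra the 50 kb bin differs by 3 classes while its right neighbour does not differ.

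The knockdowns lay on opposite sides of the border between A and B in 627 bins (1.31%). In 337 (0.706%, 16.85 Mb) both Brg1KD libraries were in A and both Ino80KD libraries in B, and in 290 (0.608%, 14.5 Mb) it was the reverse. These bins held 1.03% of placed protein-coding genes, 130 (0.638%) and 80 (0.393%). The longest run in A in Brg1KD was of 700 kb and covered Supt3 and Runx2, the bone transcription factor (chr17:44700001-45400000). It was A.2.2 in both Brg1KD libraries and B.1.1 in both Ino80KD libraries. The controls were B.1.1 in 9 of its 14 bins and in A in the other 5, in both libraries. Next in length were a run with Tshz1, Zadh2 and Zfp407 on chromosome 18, one with Cckar, Tbc1d19 and Stim2 on chromosome 5, and the Vps41 stretch. In A in Ino80KD were 700 kb over Trpm8, Spp2, Glrp1 and Arl4c (chr1:88300001-89000000), 500 kb over Cnr1, the cannabinoid receptor gene (chr4:33450001-33950000), and 450 kb over Tnik and Slc2a2, the glucose transporter of liver and pancreas (chr3:28300001-28750000). The interferon gamma locus, with Ifng, Il22 and Iltifb (chr10:118150001-118550000), was B.1.1 in both Brg1KD libraries and A.2.2 in both Ino80KD libraries and both controls.

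Genes were placed by their start where RefSeq gives a strand (16310 genes) and otherwise by their midpoint (4067 genes). Of the 20377 placed, 7.12% lay in separated bins: 794 (3.9%) towards Brg1KD and 657 (3.22%) towards Ino80KD. The counts for gene lists below are to be read against these shares, and members that share a run are a single difference counted several times.

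Of 36 pluripotency genes, 1 was separated towards Brg1KD and 0 towards Ino80KD. This was Sox2, one of the core factors of the pluripotent state (chr3:34649995-34652461). Its start lies at the very end of a bin that was A.1.2 and A.1.1 in the Brg1KD libraries, A.2.2 and A.2.1 in the Ino80KD libraries and A.1.1 in both controls. The next bin, which holds the rest of the gene, was A.1.2 and A.1.1 in both knockdowns, so the difference of 2 classes stops within the gene. It was 1 class in bins of 100 kb, where the groups were no longer separated. Myc (chr15:61985341-61990361) had the labels B.2.1 and B.1.2 in Brg1KD and B.2.2 and A.1.1 in Ino80KD, which overlap: its bin adjoins a stretch of A.1.1 or A.1.2 in every library, and the edge of that stretch lay 1 bin further out in Ino80KD library 2.

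Genes of the primitive endoderm, trophectoderm, neuroectoderm and mesendoderm lists were separated towards Ino80KD where they were separated at all. In the primitive endoderm list this held for 2 of 17 genes. Pdgfra (chr5:75151322-75198206), a receptor that marks primitive endoderm, was B.1.2 in both Brg1KD libraries and A.2.1 in both Ino80KD libraries, 3 classes apart, with B.1.2 and B.1.1 in control. The 2 bins before it differed by 1 class the other way, A.1.2 in Brg1KD and A.2.1 in Ino80KD, and the 2 bins after it did not differ. Lama1 (chr17:67697127-67822645), a basement membrane laminin, was B.1.1 and B.1.2 in Brg1KD and A.2.2 in both Ino80KD libraries and both controls. In the trophectoderm list 3 of 12 genes were separated, Gata2, Ascl2 and Elf5, on 3 chromosomes. Gata2 was A.2.1 and A.1.2 in Brg1KD and A.1.1 in both Ino80KD libraries and both controls. Ascl2 and Elf5 differed by exactly 1 class, A.2.1 against A.1.2 and A.2.2 against A.2.1, with the controls at the Ino80KD label. In the neuroectoderm list 2 of 19 genes were separated. Neurog1 was A.2.1 in both Brg1KD libraries and A.1.1 in both Ino80KD libraries, with A.1.2 and A.1.1 in control. Sox1 (chr8:12395519-12399555) was A.2.1 and A.1.2 in Brg1KD and A.1.1 in both Ino80KD libraries, but A.2.1 in both controls. Of 20 mesendoderm genes, Cer1, a Nodal and BMP antagonist, was the 1 separated gene, B.1.1 in Brg1KD and control and A.2.2 in both Ino80KD libraries. These lists are short, and in bins of 100 kb several differences shrank (Pdgfra to -1, Neurog1 to -1, Gata2 to -0.75, Sox1 and Ascl2 to -0.5). Their median difference was 0 classes except for -0.5 in primitive endoderm, and the median over all placed genes was 0. Counting members with any difference, separated or not, 3 primitive endoderm genes were higher in Brg1KD and 9 in Ino80KD. The counts were 4 and 3 in trophectoderm, 0 and 5 in neuroectoderm and 5 and 5 in mesendoderm.

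Genes of the chromosome architecture list were separated towards Brg1KD in 4 of 31 cases, in 4 runs on 4 chromosomes, and towards Ino80KD in 0. Counting members with any difference, separated or not, the list was nearly even, with 6 higher in Brg1KD and 5 in Ino80KD. Its median difference was 0 classes. Ncapg, a subunit of condensin I, was A.2.2 in both Brg1KD libraries, B.1.1 and B.2.2 in the Ino80KD libraries and B.2.1 in both controls. The difference was 1 class in batch 1 and 4 in batch 2, and its mean of 2.5 became 1.5 in bins of 100 kb. Ncapg2, a subunit of condensin II, was A.2.1 in both Brg1KD libraries and A.2.2 in both Ino80KD libraries. Top2b, a DNA topoisomerase, and Mki67, which coats mitotic chromosomes, were both A.2.2 in both Brg1KD libraries and B.1.1 in both Ino80KD libraries and both controls.

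The genes of the remodelling complexes themselves differed little. Among 29 BAF and PBAF subunits, Smarce1 was the 1 separated gene, A.2.1 in both Brg1KD libraries and A.1.2 in both Ino80KD libraries and both controls. In bins of 100 kb its difference turned to 0.75 classes towards Brg1KD, since its bin adjoins the keratin stretch on chromosome 11 described next. Among 16 INO80 subunits, Tfpt was 1 class higher in Brg1KD and Ruvbl1 1 class higher in Ino80KD. Hdac2, a deacetylase of the NuRD complex, was B.1.2 and B.1.1 in Brg1KD and A.2.2 in both Ino80KD libraries. Of 29 Polycomb subunits, 29 DNA replication genes and 39 Hox genes, 0 were separated in either direction.

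Several clustered gene families were separated towards Brg1KD as blocks. Of 49 keratin genes, 20 were, all in 2 runs. On chromosome 11 these were Krt24 to Krt28 and Krt10, in 3 bins (chr11:99250001-99400000) that were A.2.1 in both Brg1KD libraries, B.2.1 and A.2.2 in the Ino80KD libraries and likewise B.2.1 and A.2.2 in the controls, so that the difference was 4 classes in batch 1 and 1 in batch 2. On chromosome 15 they were 14 type II keratin genes, among them Krt5 and Krt1 (chr15:101550001-102000000), with a difference of 1.444 and 1 classes. Krt222, in the same bin as Smarce1 beside the chromosome 11 run, was the 1 keratin gene separated towards Ino80KD. All 20 separated protocadherin genes of 57 were of the Pcdhb cluster, in 1 run of 350 kb on chromosome 18 that was A.1.2 and A.1.1 in Brg1KD, A.2.1 in both Ino80KD libraries, with A.1.2 in control library 1 and mostly A.2.1 in control library 2. Pcdhb genes encode adhesion molecules that give neurons their surface identity.

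Zinc-finger and receptor families were read in the same way. Of 378 Zfp genes, 31 (8.2%) in 15 runs were separated towards Brg1KD and 6 (1.59%) in 6 runs towards Ino80KD. The largest group was 10 Zfp genes on chromosome 13 (chr13:67500001-67900000), from Zfp58 to Zfp273, at A.1.1 in both Brg1KD libraries and mostly A.1.2 in Ino80KD. Of 332 vomeronasal receptor genes, 21 (6.33%) in 8 runs on 5 chromosomes were separated towards Brg1KD and 0 towards Ino80KD. The longest of these runs held 7 of them on chromosome 7 (chr7:5100001-5600000), B.1.1 in both Brg1KD libraries and B.1.2 in both Ino80KD libraries. Of 1101 olfactory receptor genes, 67 (6.09%) in 12 runs were separated towards Brg1KD and 43 (3.91%) in 11 runs towards Ino80KD. Counted by runs, the olfactory receptor genes were thus nearly even between the directions. Many of these genes have near-identical copies, to which short reads cannot always be assigned, so their labels are less certain than those of single genes. Of 29 genes of histones H1, H3 and H4, H1f4 was the 1 separated gene, A.1.1 in both Brg1KD libraries, A.1.2 in both controls and A.2.1 in both Ino80KD libraries, 2 classes that became 1 in bins of 100 kb.

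The loop lists held 6013 loops for Brg1KD, 5475 for Ino80KD and 5903 for control. A loop was counted as matched when both of its anchors lay within 10 kb of those of a loop in the other list. By this measure 4262 loops of each knockdown were matched, which is 70.9% of the Brg1KD list (95% Wilson interval 69.7% to 72.0%) and 77.8% of the Ino80KD list (76.7% to 78.9%). These intervals cover counting error alone. The unmatched loops were 1751 in Brg1KD and 1213 in Ino80KD, and 39.3% and 46.7% of them had a match in the control list. Every chromosome had more loops in the Brg1KD list, with ratios from 1.005 on chromosome 14 to 1.198 on chromosome 6. Loops on the X chromosome, 165 and 145, were unmatched in 42.4% and 34.5% of cases.

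Loop length was alike in the lists, except among the longest loops. Both had a median of 250 kb, and of all length classes only that of 1000 kb or longer held more Ino80KD loops, 223 against 212. Among the unmatched loops 8.08% in Ino80KD and 5.03% in Brg1KD were this long. Unmatched loops joined B with B in 28.1% of Brg1KD cases and 26.4% of Ino80KD cases, against 23.7% and 22.8% of the whole lists.

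The lists also differed in long loops between genes. A gene start at both anchors (either end of a gene, for the 4408 genes whose strand RefSeq's promoter table does not give) was found in 24 of the Ino80KD loops of 1000 kb or longer and in 9 of the Brg1KD loops of that length. Of the 24, 15 (62.5%) had no match in the Brg1KD list, whereas 1 of the 9 (11.1%) had none in the Ino80KD list. Among the other loops of that length the unmatched shares were alike, 83 of 199 (41.7%) in Ino80KD and 87 of 203 (42.9%) in Brg1KD. The counts of 15 and 1 were the same with anchors within 20 kb and 50 kb. From 500 kb upwards, 31 of 67 such Ino80KD loops (46.3%) and 8 of 39 such Brg1KD loops (20.5%) were unmatched, and under 500 kb the order was the reverse, 41 of 155 (26.5%) and 54 of 159 (34.0%). The control list had 22 such loops of 1000 kb or longer, of which 10 were matched in Ino80KD and not in Brg1KD and 1 in Brg1KD and not in Ino80KD. This class of loops was chosen after its values were seen, and with starts of known strand alone it shrinks to 3 unmatched of 7 in Ino80KD and 1 of 4 in Brg1KD.

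**Figure D5:**
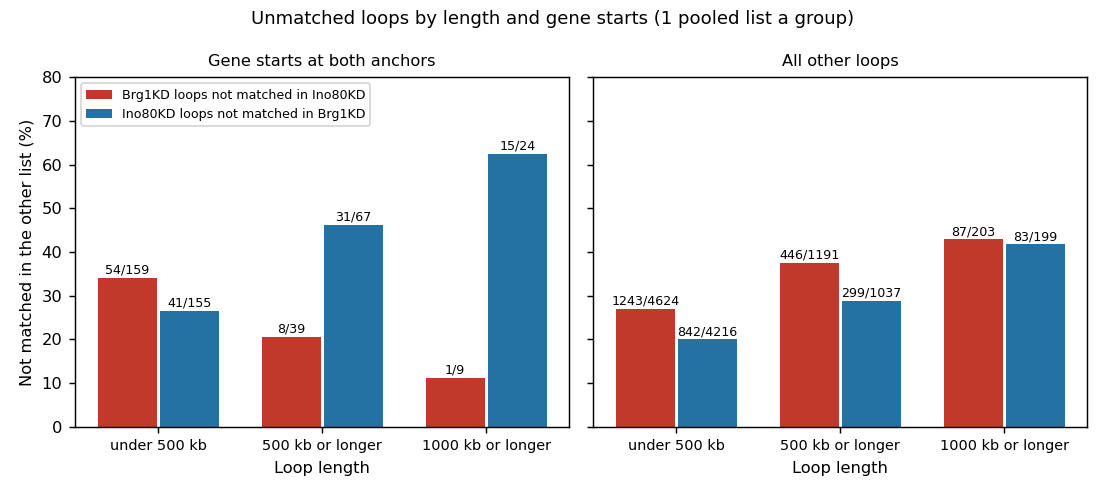
Share of loops with no match in the list of the other knockdown (vertical axis, percent), by loop length, for loops with gene starts at both anchors (left) and all other loops (right), with the counts over each bar and the longest class included in that of 500 kb or longer. At 1000 kb or longer 15 of 24 Ino80KD loops between gene starts are unmatched against 1 of 9 Brg1KD loops, while the other loops stand at 41.7% and 42.9%.

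Of the 15 loops of this kind in the Ino80KD list without a match in Brg1KD, 10 were in the control list too. In 3 of the 15 both anchors held a start of known strand. The others rest on a gene end of unknown strand at an anchor, which may not be the start. A loop of 1820 kb joined Insm1, a zinc-finger factor of endocrine and neural precursors, with Foxa2, the endoderm pioneer factor (chr2:146220001-146230000 and chr2:148040001-148050000). Vax2 looped to Emx1 over 1470 kb and to Fbxo41 over 1790 kb, where Vax2 and Emx1 are homeobox genes of eye and forebrain. Others joined Foxe1 with Pax5 and with Nr4a3, Skida1 with Ptf1a, Irx1 with Irx4, Barhl2 with Gfi1, Osr1 with Kcns3, Mcidas with Fst and Dmrt1 with Smarca2 (1100 kb). A second loop between Dmrt1 and Smarca2, of 1000 kb, was in both knockdown lists and in control. Sox1 was joined to Col4a1 and Col4a2, neighbouring collagen IV genes, over 1080 kb (chr8:11310001-11320000 and chr8:12390001-12400000). Gpa33 was joined with Uck2. Between 500 and 1000 kb the unmatched Ino80KD loops included Pax2 with Fgf8 (990 kb), Sox1 with Rab20 (920 kb), Lrp2 with Gad1 and with Sp5, Skor1 with Smad6, Pdgfa with Uncx and Fignl2 with Krt18. The 1 unmatched long Brg1KD loop of this kind joined a pair of olfactory receptor genes, Olfr1009 and Olfr1126 (1730 kb).

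Loops of the same kind that stood in both lists and in control joined Sp9 with Hoxd11 and Hoxd12 (1400 kb), En2 and Shh with Mnx1, and Lhx1 with Tbx2. A loop joined Nkx2-1 with Foxa1 in the Brg1KD and control lists (1010 kb), and its match in the Ino80KD list (1020 kb) had its anchor 10 kb aside, where no gene start lies. Whether a loop counts as one between gene starts thus depends on the exact anchor. Labels at the anchors of the unmatched Ino80KD loops were not alike in this respect. At the Vax2 and Emx1 anchors they did not differ, with A.1.1 at both in all 6 libraries. The Sox1 anchor of the loop to Col4a1 was A.2.1 and A.1.2 in Brg1KD and A.1.1 in both Ino80KD libraries.

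The promoters at some of these anchors are printed to show how widely the joined starts vary in CG content, 250 bases upstream of the start from RefSeq (GRCm38.p6, the assembly mm10 names), 5′ to 3′ on the strand of the gene, with each CG dinucleotide in capitals. Sox1 and Col4a1 stand at the 2 ends of an Ino80KD loop without a match in Brg1KD, Foxa2 and Ptf1a at 1 end of such loops, Nkx2-1 and Foxa1 at the 2 ends of a Brg1KD loop with a match in Ino80KD, and Lifr at a Brg1KD loop without a match in Ino80KD.
Sox1: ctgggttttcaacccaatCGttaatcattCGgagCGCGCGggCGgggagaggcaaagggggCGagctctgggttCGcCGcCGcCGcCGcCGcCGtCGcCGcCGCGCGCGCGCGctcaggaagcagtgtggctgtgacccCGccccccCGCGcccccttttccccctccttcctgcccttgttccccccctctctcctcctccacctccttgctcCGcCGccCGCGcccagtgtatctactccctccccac
Col4a1: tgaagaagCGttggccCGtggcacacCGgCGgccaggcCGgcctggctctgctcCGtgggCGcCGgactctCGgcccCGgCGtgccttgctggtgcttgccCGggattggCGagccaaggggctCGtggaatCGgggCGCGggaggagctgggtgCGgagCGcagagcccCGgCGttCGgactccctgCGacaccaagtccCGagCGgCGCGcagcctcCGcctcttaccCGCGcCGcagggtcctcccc
Foxa2: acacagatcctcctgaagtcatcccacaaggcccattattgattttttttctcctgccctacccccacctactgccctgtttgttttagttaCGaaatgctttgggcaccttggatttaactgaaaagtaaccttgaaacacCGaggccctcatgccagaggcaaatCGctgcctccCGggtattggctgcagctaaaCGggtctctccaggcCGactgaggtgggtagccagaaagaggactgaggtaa
Ptf1a: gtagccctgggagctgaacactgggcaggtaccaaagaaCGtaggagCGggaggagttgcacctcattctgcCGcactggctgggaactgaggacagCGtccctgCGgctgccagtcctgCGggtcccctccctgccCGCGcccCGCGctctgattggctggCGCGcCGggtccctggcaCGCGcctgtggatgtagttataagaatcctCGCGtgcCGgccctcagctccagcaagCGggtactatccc
Nkx2-1: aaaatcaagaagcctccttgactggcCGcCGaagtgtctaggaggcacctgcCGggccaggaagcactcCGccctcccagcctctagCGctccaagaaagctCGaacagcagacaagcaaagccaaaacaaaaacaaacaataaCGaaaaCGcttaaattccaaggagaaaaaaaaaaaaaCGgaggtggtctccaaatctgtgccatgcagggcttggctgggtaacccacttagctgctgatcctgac
Foxa1: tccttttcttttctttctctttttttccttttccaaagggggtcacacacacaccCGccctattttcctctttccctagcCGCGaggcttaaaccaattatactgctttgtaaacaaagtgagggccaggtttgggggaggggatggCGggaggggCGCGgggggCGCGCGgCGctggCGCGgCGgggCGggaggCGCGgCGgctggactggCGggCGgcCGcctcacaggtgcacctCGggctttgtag
Lifr: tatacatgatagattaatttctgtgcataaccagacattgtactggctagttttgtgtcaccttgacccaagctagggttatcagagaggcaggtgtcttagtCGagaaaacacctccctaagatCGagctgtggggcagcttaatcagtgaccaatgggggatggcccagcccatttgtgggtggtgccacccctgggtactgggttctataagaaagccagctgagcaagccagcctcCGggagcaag
Sox1 (chr8:12395269-12395518, + strand) has 29 CG in these 250 bases, Col4a1 (chr8:11312827-11313076, - strand) 31, Foxa2 (chr2:148046970-148047219, - strand) 6 and Ptf1a (chr2:19445413-19445662, + strand) 19. Nkx2-1 (chr12:56536909-56537158, - strand) has 9, Foxa1 (chr12:57546112-57546361, - strand) 21 and Lifr (chr15:7140292-7140541, + strand) 3. For Foxa2 the most upstream of 3 listed starts in the anchor is shown.

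Promoters at loop anchors were slightly richer in CG than all promoters, in both lists alike. The median number of CG in 250 bases was 10 over all 21263 promoters of protein-coding genes, 12 at anchors of either knockdown list, 12 at anchors of unmatched Brg1KD loops and 13.5 at anchors of unmatched Ino80KD loops. For loops of 500 kb or longer with starts at both anchors it was 16.5 in Brg1KD and 15 in Ino80KD, over 62 and 105 promoters. Anchors are 10 kb wide, and the sequence outside promoters was not used here.

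Unmatched loops at the starts of single listed genes went both ways. Pluripotency genes had 2 unmatched loops of 4 in Brg1KD and 0 of 2 in Ino80KD. The 2 were at Lifr, the LIF receptor gene (230 kb), and at Tbx3 (100 kb), and neither was in control. Tbx3 also had a start at an Ino80KD anchor, in a loop that counted as matched. The trophectoderm factor Cdx2 had 2 loops in the Brg1KD list without a match in Ino80KD, of 180 kb and 610 kb. Genes of chromosome architecture at unmatched Brg1KD anchors were Pds5a, a cohesin regulator, joined to Ube2k over 160 kb, and Esco2, a cohesin acetyltransferase, over 230 kb. Polycomb subunit genes were Phc3, joined to Mynn over 360 kb, and Rybp over 140 kb in Brg1KD, and Cbx8 over 1200 kb in Ino80KD. Over all loops with a gene start, 419 of 1540 (27.2%) in Brg1KD and 343 of 1470 (23.3%) in Ino80KD were unmatched. Hox genes had 6 unmatched loops of 18 in Brg1KD and 2 of 14 in Ino80KD. Near Hoxb the loop to Sp6 started at Hoxb6 and Hoxb7 in Brg1KD (720 kb) and at Hoxb9 in Ino80KD (740 kb), so that a loop unmatched in each list joins the same neighbourhood.

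Against the same shares of 27.2% and 23.3%, primitive endoderm genes had 0 unmatched loops of 5 in Brg1KD and 4 of 7 in Ino80KD. The other lineage lists were less uneven. In the same order, trophectoderm genes had 2 of 6 and 2 of 6, neuroectoderm genes 1 of 11 and 3 of 10, and mesendoderm genes 0 of 12 and 2 of 12. All these counts are small and were not tested. The 4 primitive endoderm loops were the Foxa2, Fst and shared Col4a1 and Col4a2 loops already given above, and a loop of 120 kb at Gata4. The Gata4 loop was named after its values were seen. The Foxa2 loop and the Col4a1 and Col4a2 loop were in control too, and the Fst and Gata4 loops were not. Col4a1, Col4a2 and Gata4 had a start at an Ino80KD anchor only. Pdgfra had one at a Brg1KD anchor only, in a loop that counted as matched. The neuroectoderm gene En1 was joined to C1ql2 over 260 kb in the Ino80KD list alone, and Elf5 had a loop of 330 kb there. Over all protein-coding genes, 1617 had a start at a Brg1KD anchor and 1577 at an Ino80KD anchor, and 1006 at both, which is 62.2% and 63.8% of the 2 sets. The start of Smarca4 had 2 loops, of 250 kb and 330 kb, in both knockdown lists and in neither case in control. No loop had an anchor at the start of Ino80, Pou5f1, Sox2 or Nanog in any of the 3 lists.

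Anchors of unmatched loops were also read for their subcompartment. Of unmatched Brg1KD loops 8.34% had an anchor in a bin separated towards Brg1KD and 8.88% in one separated towards Ino80KD. Of unmatched Ino80KD loops the shares were 7.28% and 10.5%. All loops of the 2 lists had 7.27% and 9.67% in Brg1KD and 7.01% and 10.1% in Ino80KD. The mean label difference at the anchors was 0.0113 classes for unmatched Brg1KD loops and -0.0435 for unmatched Ino80KD loops.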

How the data were processed

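Hi-C was done on 6 libraries, 2 each of Brg1KD, Ino80KD and control. The authors deposited subcompartment segments with a label and a score per segment, which is the rank of the label in 8 equal steps within each library, and loop lists with anchor positions and no score. Per the submitters' processing notes, BWA, SAMtools, Juicer 2.0, HOMER and bedtools were used on mm10; their roles, the callers and the read depth are not given in the sources used here.

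Labels were read in 50 kb bins with a label in all 6 libraries. Bins were tested with limma 3.58.1 (R 4.3.3) on all 6 libraries, with Benjamini-Hochberg adjustment at 0.05; library values with exact permutation (SciPy 1.17.1, Python 3.11.15, pandas 2.3.3). The limma fit was tested on simulated data, where it called more unmoved than moved bins, so its calls are a description. The rule for separated bins and the loop matching were checked on a few made-up rows, which gives no error rate. Library 1 and library 2 are batches per the labels, so the numbers pair the samples; the deviations of same-numbered knockdown libraries correlated at 0.0885 over bins. Replicate blocks, other bin sizes, left-out libraries and other loop tolerances were tried.

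The text names the 6 separated runs with the largest summed difference in each direction, the 4 longest runs across the A/B border in each direction, up to 4 separated members per gene list, and unmatched loops at up to 4 members per list; further names were chosen after their values were seen. Some runs and loops that these rules name are not reported here. The members of the comparison and the gene lists were chosen with earlier results of these data known. Gene positions and promoters are RefSeq's (GRCm38.p6).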

Additional observations from a re-analysis of the deposited data

How the results depend on the processing

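With 2 libraries a group, counts of bins depend on both libraries. The 1890 limma calls became 3292 with the 4 knockdown libraries alone, 515 with a common variance, 885 in 100 kb bins, and 3289 to 4976 without one library; the replicate block gave 2057, and 1475 with a common variance. The 4228 separated bins became 2464 in 100 kb bins (10.35%), 2164 with border bins left out (7.19%), and 8746 to 9698 without one knockdown library, where a single library has to lie beyond 2. The 627 bins across the A/B border became 252, 272 and 1113 to 1317 in the same order. The 4958 bins with the same direction in both batches became 2978 (67.0%) in 100 kb bins, 2486 (70.9%) without border bins and 296 (72.2%) for differences of 2 classes or more.

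The difference in the share in A was -0.0786 to 0.288 percentage points without one library, reversed at -0.0786 without Brg1KD library 2, and 0.105 with the replicate block. The mean place ranged from -0.0225 to 0.0079, reversed at 0.00357 without Brg1KD library 2 and at 0.0079 without Ino80KD library 1, and the block gave -0.00728. The B.2.2 difference ranged from -1.14 to 1.71. Matched loops were 41.3% of Brg1KD and 45.4% of Ino80KD with identical anchors, 73.8% and 81.1% within 20 kb, and 75.6% and 82.9% within 50 kb. Unmatched long loops between gene starts, 1 in Brg1KD and 15 in Ino80KD, became 8 and 31 from 500 kb, and 1 and 3 with known strands alone. In 100 kb bins, which average a bin with its neighbour, Sox2 was 1 class apart and not separated, Smarce1 turned to 0.75, and Pdgfra, Neurog1, Gata2, Sox1, Ascl2, H1f4 and Ncapg moved by over 1.5 times, as given beside them. The cause of the other changes was not tested, beyond the fewer bins or libraries each setting holds. Read depth, which limits how fine a label or loop can be called, is unknown.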
